A study of Mus musculus with 20 samples.

Results

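The 35 genes described here make, move or receive γ-aminobutyric acid (GABA), anchor its receptors, or mark the interneurons that release it. They were taken by name from a deposited expression table of 24528 genes and fall into 7 genes of synthesis and transport, 19 of receptors and the inhibitory postsynapse, and 9 of interneuron identity. None was at 0 in every library, and all 35 entered every test. Libraries of total RNA without ribosomal RNA came from 2 forebrain regions of mice aged 18 months. TDP43-KQ mice are homozygous for a lysine-to-glutamine substitution that mimics acetylation in endogenous Tardbp, present in every cell of 1 CRISPR-edited line, and TDP43-WT mice carry the unedited gene. In the neocortex there were 3 female and 2 male TDP43-WT libraries and 3 female and 3 male TDP43-KQ libraries, and in the hippocampus 3 female and 1 male TDP43-WT and 3 female and 2 male TDP43-KQ, 20 in all. By genotype, litter and number, the same 6 females seem to have given both tissues, although the labels do not say so.

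GABA is the main inhibitory transmitter of the adult forebrain and is made from glutamate by the decarboxylases GAD67 (Gad1) and GAD65 (Gad2). It is loaded into vesicles, acts on chloride-conducting GABA-A receptors of mixed subunits and on G protein-coupled GABA-B receptors, and is then taken up and broken down. In neocortex and hippocampus it is released by interneurons that arise from Dlx-expressing progenitors, whereas the neighbouring striatum consists mostly of GABAergic projection neurons.

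The values are on a log2-like scale on which the mean of the neocortex TDP43-KQ libraries is 0 for every gene, so they give differences between libraries and neither the level of a gene nor its depth. The dissections carried their regional labels: the mean of 8 hippocampal marker genes was 1.47 to 1.73 in hippocampus libraries and -0.10 to 0.10 in neocortex libraries. Sex and litter had been removed by the authors. Values of a group are listed with females first and then males, each in the order of the labels' numbers. Neocortex TDP43-WT male 1 is the only library of its litter in the table, and its values therefore equal its group's fitted mean and add no spread. Neocortex TDP43-KQ female 2 and, in the hippocampus, TDP43-WT female 3 and TDP43-KQ females 2 and 3 likewise had no weight in the regional estimates, because the litter and sex terms account for them. Differences of genotype are TDP43-KQ minus TDP43-WT from limma with sex and litter as terms, given ± standard error, and a gene is called at a Benjamini-Hochberg adjusted p under 0.05 over all genes tested.

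In the neocortex, 28 of the 35 genes were lower and 7 higher in TDP43-KQ mice, but none was called (7 of 18329 genes, 0.0382% of those tested, were). At an unadjusted p under 0.05, 7 of the 35 were lower and 1 higher, against 5.97% and 7.69% of all genes in these directions. The median difference was -0.21 for synthesis and transport, -0.06 for receptors and -0.13 for interneuron identity, beside -0.0037 for all genes. With both regions in 1 model again none of the 35 was called in the neocortex (40 of 17863 genes, 0.224%), with 11 lower and 1 higher at an unadjusted p under 0.05, beside 6.95% and 7.5% of all genes. Gad1, Gad2, Abat and Gnb5 were among the 7 lower at an unadjusted p under 0.05 in the neocortex alone. The authors had named them as lower in the neocortex of these same mice, so these counts and medians are not independent support. Leaving out each library in turn moved these counts over all genes from 0 to 9 in the neocortex alone (0 without TDP43-WT male 2) and from 7 (without neocortex TDP43-KQ female 1) to 123 (without hippocampus TDP43-WT female 2) in the joint model. In these bulk samples fewer cells of a type and less RNA per cell cannot be told apart.

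Gad1 (GRCm38 chr2:70553072-70602014, plus strand), which makes the larger part of brain GABA, stood at 0.22, 0.24, 0.21, 0.23 and 0.25 in neocortex TDP43-WT libraries and at -0.14, 0.01 and 0.12 (lowest, median and highest) in TDP43-KQ. Every TDP43-KQ library was below every TDP43-WT library. The difference was -0.22 ± 0.06 (adjusted p = 0.24, limma; 95% interval -0.36 to -0.08). Gad2 (chr2:22622205-22693874, plus strand), whose product supplies synaptic terminals, was 0.14, 0.36, 0.25, 0.30 and 0.46 in TDP43-WT and -0.16, 0.01 and 0.17 in TDP43-KQ. The groups met only at TDP43-WT female 1, which lay below TDP43-KQ female 1. Gad2 had the largest difference among the 7 genes of synthesis and transport here, -0.32 ± 0.09 (adjusted p = 0.26).

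The vesicular GABA transporter Slc32a1, which fills synaptic vesicles, was 0.25, 0.37, 0.28, 0.27 and 0.17 in neocortex TDP43-WT libraries and -0.08, -0.03 and 0.11 in TDP43-KQ. Abat, the transaminase that degrades GABA, was 0.13, 0.19, 0.20, 0.20 and 0.27 in TDP43-WT and -0.14, 0.01 and 0.07 in TDP43-KQ. For both genes the groups did not overlap. Their differences were -0.21 ± 0.06 for each (adjusted p = 0.25 and 0.26). The other members of the group moved less. The astrocytic GABA transporter Slc6a11 differed by -0.03 ± 0.05 and the chloride exporter Slc12a5 by 0.09 ± 0.05, with adjusted p of 0.80 and 0.46. Slc12a2, a chloride importer, differed by -0.07 ± 0.05 (adjusted p = 0.56), a sign that turned to 0.01 with both regions in 1 model and to 0.04 with litter as a random effect.

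Across the 35 genes, 5 had every neocortex TDP43-KQ library below every TDP43-WT library (Gad1, Abat, Slc32a1, Gnb5 and the receptor scaffold Gphn, whose exons overlap the antisense gene Gm48226), 14.3% beside 4.29% of all genes, and 0 had the reverse, beside 4.22%. In 2-sided exact permutation tests of group means, computed for 9 genes in each region (18 tests), p was 0.0022 for Abat, Slc32a1 and Gnb5, the smallest that 462 splits allow, 0.0043 for Gad1 and 0.0087 for Gad2. In the hippocampus p for the same 5 genes ran from 0.17 to 0.86, where 126 splits allow 0.0079. The other 4 genes tested were chosen by the size of their difference, so their p is not used. Of the first 5, Gad1, Gad2, Abat and Gnb5 had been named by the authors as lower in the neocortex of these same mice. Their p values and their place in the 14.3% are therefore not independent support. These tests take the values as deposited and do not count the degrees of freedom that the removal of sex and litter used. In the neocortex they also count TDP43-WT male 1, whose values equal its group's fitted mean, as a library like the others. Their p values are therefore approximate.

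The difference could be read where libraries of 1 litter and 1 sex hold both genotypes. Litter 4 also holds both in the neocortex, as a TDP43-WT female and a TDP43-KQ male, and was not compared in this way. In litter 6, with 1 TDP43-KQ and 2 TDP43-WT females, the difference was -0.23 for Gad1 and -0.08 for Gad2. Among the males of litter 5, 2 TDP43-KQ and 1 TDP43-WT, it was -0.34 and -0.48. The signs were the same in both comparisons and the sizes were not. Without TDP43-WT male 2 the regional estimate of Gad2 was -0.17 and that of Gad1 -0.15, the nearest to 0 when each library was left out.

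In these fits of the deposited values the count of 0 depends on litter as a term. The authors' DESeq2 test also corrected for sex and litter, and they named Gad1, Gad2, Abat and Gnb5 as lower in the neocortex. The count of 0 here is from a refit of values with both removed, with 4 residual degrees of freedom in the neocortex. With genotype alone 10 of the 35 genes were called in the neocortex (15% of all genes), with sex but no litter 9 (10.6%), with litter as a random effect 10 (13.2%) and with a replicate block in place of sex and litter 7 (10.1%). With both regions in 1 model the counts were 11, 9, 11 and 6 in the neocortex (13.3%, 10.1%, 13.4% and 6.37%) and 4, 4, 4 and 1 in the hippocampus (11.6%, 8.87%, 11.8% and 5.27%). Gad1, Gad2, Abat, Slc32a1 and Gnb5 were called in each of these neocortex fits, and in none of them was the removal of litter from the deposited values charged to the error.

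Beside these genes, a list of 19 markers of striatal projection neurons was lower in the neocortex of TDP43-KQ mice in 19 of 19 genes, with a median of -0.30 and 0 called (1, Penk, with both regions in 1 model). Its mean was 0.06, 0.37, 0.40, 0.31 and 0.40 in the TDP43-WT libraries and -0.15, 0.03 and 0.11 in TDP43-KQ. The mean of the 7 synthesis and transport genes was 0.10, 0.15, 0.13, 0.13 and 0.16 in the same TDP43-WT libraries and -0.08, 0.02 and 0.04 in TDP43-KQ. TDP43-WT female 1 was lowest of its group in both means. It lay within the TDP43-KQ range for the striatal list and above it for the mean of the 7 genes. For Gad2 alone it also lay within that range (0.14, with a TDP43-KQ highest of 0.17). Penk (-0.67 ± 0.10, adjusted p = 0.12), an enkephalin precursor, and Sh3rf2 (-0.50 ± 0.07, adjusted p = 0.07) had the largest differences of the list. In the opposite direction, 9 of 10 excitatory neuron markers were higher in TDP43-KQ mice (median 0.10, 0 called). So were 7 of 7 markers of neocortex identity (median 0.11, 0 called), a list that shares genes with the former. Other lists were lower, as the striatal list was. The means of neocortex TDP43-WT and TDP43-KQ libraries ran from 0.12 to 0.37 and from -0.10 to 0.11 for 8 oligodendrocyte markers, from 0.06 to 0.25 and from -0.14 to 0.08 for 6 of microglia, and from 0.09 to 0.19 and from -0.12 to 0.10 for 8 of astrocytes, with every gene of the 3 lists lower and 0 called. Gad1, Gad2 and Slc32a1 are also transcribed by striatal projection neurons, and the part of striatal tissue, or of these other cell types, in their lower values was not tested.

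**Figure D1:**
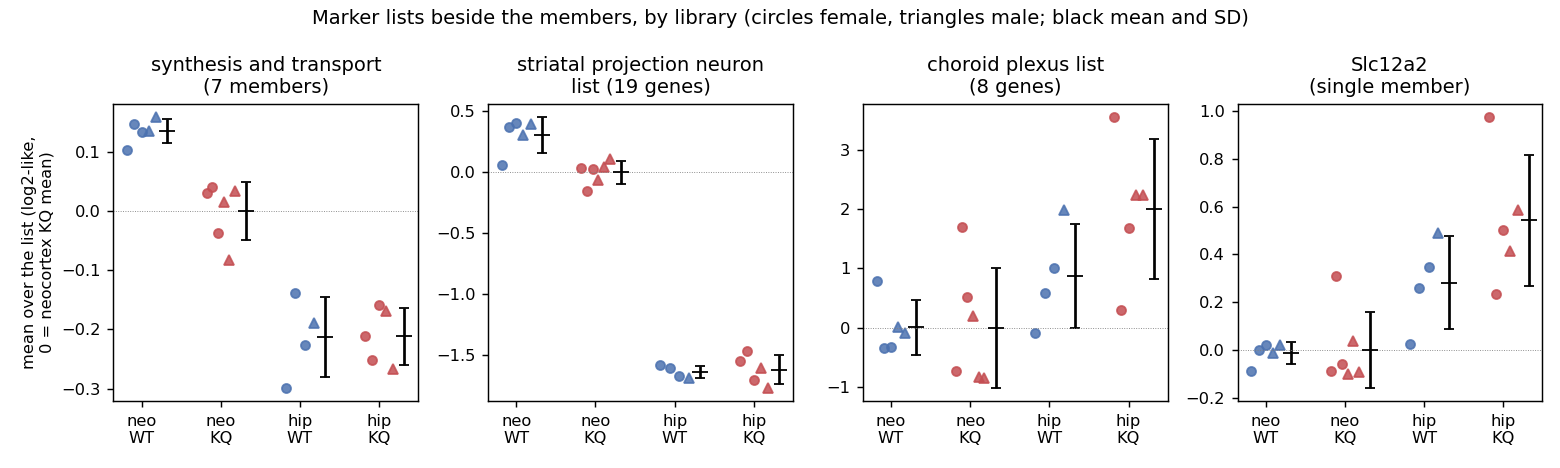
Mean value per library (log2-like, 0 is the neocortex TDP43-KQ mean) of the 7 synthesis and transport genes, the 19 striatal markers and 8 choroid plexus markers, and the value of Slc12a2 alone; neo and hip are neocortex and hippocampus, points are libraries and black bars mean and SD. Neocortex TDP43-WT libraries lie above TDP43-KQ for synthesis and transport, 1 TDP43-WT library does not for the striatal list, and hippocampus libraries spread from -0.09 to 3.55 for the choroid plexus list.

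TDP-43 binds RNA rich in repeated UG, and the longest coding transcript of each gene was therefore searched on its own strand for GT repeated 6 times (12 bases, GTGTGTGTGTGT). It was found in 4 of the 35 genes (11.4%), against 6.17% of 21877 coding genes and 8.52% of genes with transcripts of 2913 to 5747 bases, the middle range of the 35. All 4 were in 3' untranslated regions: Gad2 (a run of 45 bases), Slc12a5 (36), Slc12a2 (15) and Gabbr1 (14). The first 30 bases of the Gad2 and Slc12a5 runs and the Gabbr1 run with its flanks are shown from GRCm38 on the plus strand at chr2:22693050-22693079, chr2:164998650-164998679 and chr17:37073783-37073812, with the repeat in capitals.
Gad2: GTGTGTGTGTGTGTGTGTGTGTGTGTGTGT
Slc12a5: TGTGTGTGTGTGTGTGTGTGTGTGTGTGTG
Gabbr1: actatgtaGTGTGTGTGTGTGTtgccctga
The neocortex differences of these genes with a repeat ran from -0.32 (Gad2) to 0.09 (Slc12a5). Gad1, which was lower to a like degree, had no run above 6 bases in the transcript searched. Introns were not searched for any gene, so the lack of a repeat here does not extend to the unspliced RNA. A repeat is a description of the sequence and not a mapped binding site.

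Among the receptors in the neocortex, 14 of 19 were lower and 5 higher, with 1 in each direction at an unadjusted p under 0.05. Gnb5, a G protein beta subunit that pairs with RGS proteins and tunes signalling by receptors of the GABA-B type, was 0.15, 0.25, 0.13, 0.16 and 0.12 in TDP43-WT and -0.07, -0.004 and 0.06 in TDP43-KQ. The groups were separate, with a difference of -0.14 ± 0.05 (adjusted p = 0.32). Exons of Gnb5 and Slc32a1 overlap those of the antisense genes Gm19531 and Gm14205, whose reads cannot be told apart from theirs. Without TDP43-KQ female 1 the Gnb5 difference was -0.09. Gabra2, an alpha subunit of synaptic GABA-A receptors, went the other way, at -0.32, -0.37, -0.35, -0.30 and -0.14 in TDP43-WT and -0.27, 0.03 and 0.18 in TDP43-KQ. Only TDP43-KQ male 2 and TDP43-WT male 2 crossed, and the difference was 0.24 ± 0.10 (adjusted p = 0.34). It was 0.15 without TDP43-KQ female 1 and 0.38 without TDP43-WT male 2.

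The other GABA-A subunits lay between -0.17 ± 0.08 (Gabra5) and 0.07 ± 0.07 (Gabrb1) in the neocortex, with the widest error for Gabrq (-0.12 ± 0.19). The GABA-B subunits Gabbr1 and Gabbr2 differed by -0.09 ± 0.05 and 0.10 ± 0.07, and the glycine receptor beta subunit Glrb, which binds gephyrin, by -0.14 ± 0.06. None of these was called, and the genotypes overlapped for each of them. Nlgn2, an adhesion molecule of inhibitory synapses, was 0.11 ± 0.05 higher (adjusted p = 0.37).

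Of the interneuron identity genes in the neocortex, 8 of 9 were lower and 1 (Reln) higher. The homeobox genes Dlx5 and Dlx6, which lie 9237 bases apart on chromosome 6 and act in interneuron precursors, differed by -0.19 ± 0.05 (adjusted p = 0.25) and -0.17 ± 0.07 (adjusted p = 0.34). Dlx1 and Dlx2, paired in the same way on chromosome 2, differed by -0.07 ± 0.06 and -0.05 ± 0.07. The exons of Dlx6 overlap those of the antisense gene Dlx6os2 and those of Dlx1 overlap Dlx1as, and without a stated strand in counting the reads of each pair cannot be told apart. Lhx6, needed for parvalbumin and somatostatin interneurons, differed by -0.13 ± 0.08. Calb2, which encodes calretinin, had the largest estimate of the group (-0.26 ± 0.13, adjusted p = 0.41) and the widest spread.

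Calb2 stood at 0.53, 0.12, 0.12, 0.17 and -0.09 in neocortex TDP43-WT and at -0.32, -0.04 and 0.70 in TDP43-KQ. TDP43-KQ female 2, the highest, was alone in its litter in the neocortex and had no weight in the estimate, while the estimate was -0.04 without TDP43-KQ female 1, -0.16 without TDP43-WT female 1 and -0.43 without TDP43-WT male 2. Pvalb, the calcium-binding protein of fast-spiking interneurons, was 0.21, 0.35, 0.15, 0.20 and 0.11 in TDP43-WT and -0.19, -0.01 and 0.18 in TDP43-KQ, with a difference of -0.13 ± 0.07 (adjusted p = 0.44). It was -0.05 without TDP43-KQ female 1 and -0.21 without TDP43-WT female 3, TDP43-KQ female 3 or TDP43-KQ male 1.

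**Figure D2:**
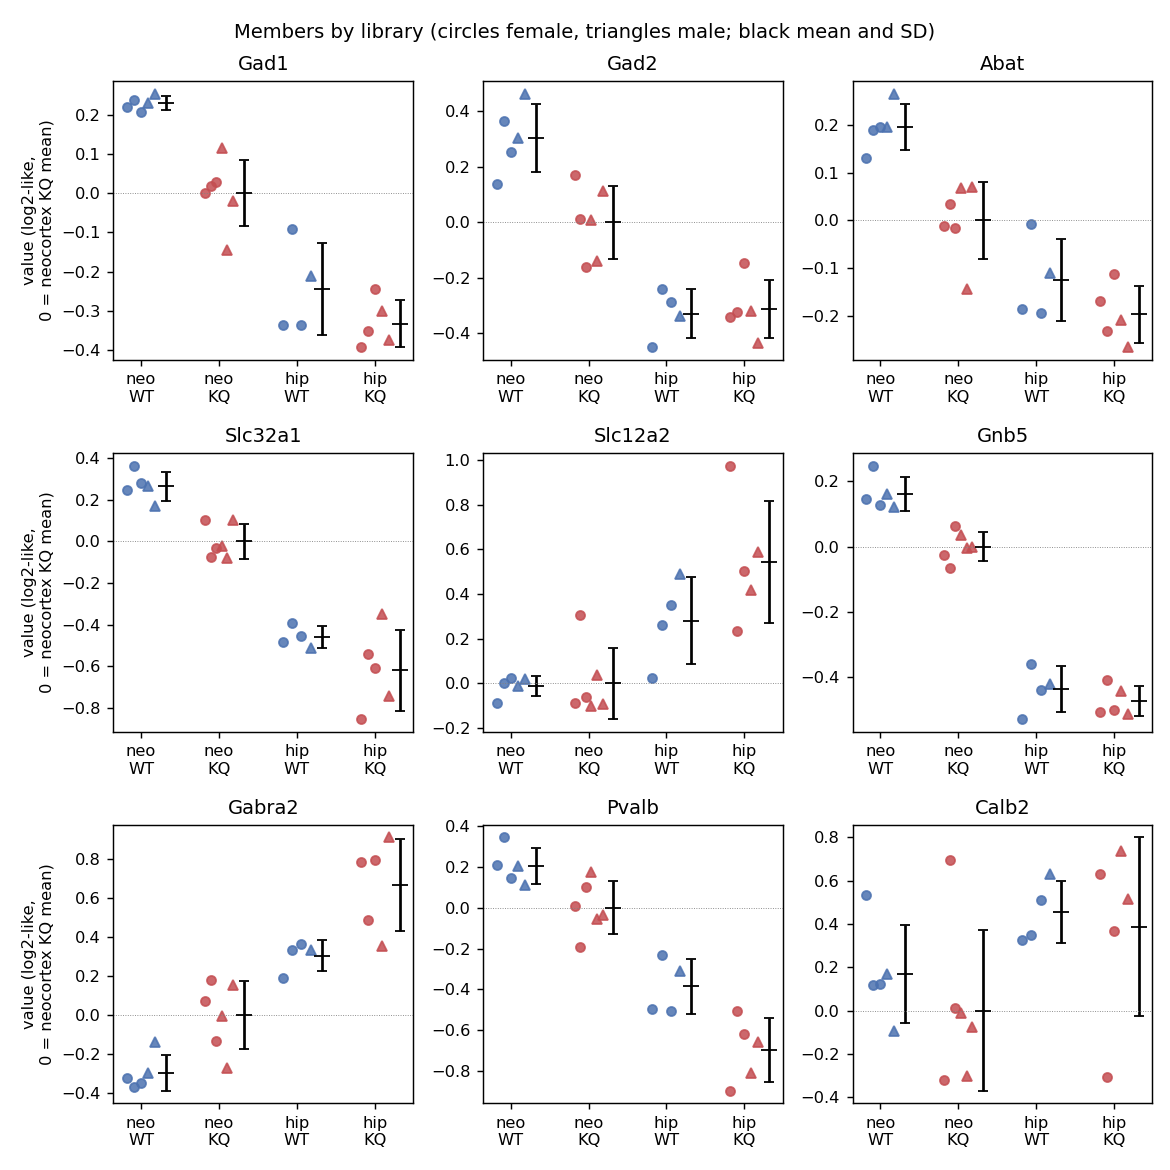
Value of 9 genes in every library (log2-like, 0 is the neocortex TDP43-KQ mean) by region (neo, hip) and genotype (WT, KQ), with circles for females, triangles for males and black bars for mean and SD. In the neocortex Gad1, Abat, Slc32a1 and Gnb5 are separate between genotypes, and Gad1 TDP43-WT libraries sit between 0.21 and 0.25.

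In the hippocampus, 20 of the 35 genes were lower and 15 higher in TDP43-KQ mice, and none was called by limma (0 of 18310 genes, 0%). At an unadjusted p under 0.05, 2 of the 35 were higher and 1 lower, against 6.48% and 5.67% of all genes. With both regions in 1 model the count stayed 0 (69 of 17863 genes, 0.386%), and 2 of the 35 were higher and 3 lower at an unadjusted p under 0.05, beside 7.19% and 7.65% of all genes. Leaving out each library moved the counts over all genes from 0 to 128 in the hippocampus alone (128 without TDP43-WT male 1, otherwise at most 1) and from 8 (without hippocampus TDP43-KQ female 1) to 137 (without neocortex TDP43-KQ male 1) in the joint model. Medians were -0.06 for synthesis and transport, -0.06 for receptors and 0.01 for interneuron identity, beside -0.0047 for all genes.

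Gad1 was -0.33, -0.09, -0.34 and -0.21 in hippocampus TDP43-WT libraries and -0.39, -0.35, -0.24, -0.30 and -0.37 in TDP43-KQ, and Gad2 was -0.45, -0.24, -0.29 and -0.34 against -0.34, -0.32, -0.15, -0.32 and -0.44. The genotypes overlapped for both genes. Their differences were -0.15 ± 0.08 (adjusted p = 0.49) and -0.02 ± 0.08 (adjusted p = 0.95). The sign for Gad2 turned in 7 of 16 alternatives, as in the joint model (0.02), so that it has no settled direction, and Gad1 was -0.10 without TDP43-WT female 2. Slc32a1 was -0.48, -0.39, -0.45 and -0.51 in TDP43-WT and -0.85, -0.54, -0.61, -0.35 and -0.74 in TDP43-KQ. Its difference of -0.22 ± 0.13 (adjusted p = 0.51) was -0.03 without TDP43-KQ female 1 and -0.42 without TDP43-WT male 1. Abat and Gnb5 differed by -0.10 ± 0.07 and -0.06 ± 0.07 (adjusted p = 0.61 and 0.76), or by -0.07 and -0.02 without TDP43-WT female 2, and Gnb5 by -0.10 without TDP43-WT female 1.

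Pvalb had the largest difference of the 35 genes in the hippocampus alone, and Gabra2 in the joint model. It was -0.50, -0.23, -0.50 and -0.31 in TDP43-WT libraries and -0.90, -0.50, -0.62, -0.81 and -0.66 in TDP43-KQ. The groups touched without crossing, the highest TDP43-KQ value being -0.5046 and the lowest TDP43-WT value -0.5044. The difference was -0.48 ± 0.09 (adjusted p = 0.26; 95% interval -0.70 to -0.26), and it ran from -0.53 to -0.41 when each library was left out. With both regions in 1 model it was -0.31 ± 0.10 (adjusted p = 0.20).

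Gabra2 was 0.19, 0.33, 0.36 and 0.34 in hippocampus TDP43-WT and 0.79, 0.49, 0.80, 0.36 and 0.91 in TDP43-KQ. TDP43-KQ male 1 alone fell within the TDP43-WT range, and the difference was 0.41 ± 0.15 (adjusted p = 0.36). Gabra2 was thus the receptor gene with the largest estimate in either region, higher in TDP43-KQ in both. The alpha subunit Gabra3 was higher in every TDP43-KQ library than in every TDP43-WT library of the hippocampus, 0.15 ± 0.07 (adjusted p = 0.46).

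Gabra5, Gabrd, Gabbr1, Gabbr2 and Pvalb had every hippocampus TDP43-KQ library below every TDP43-WT library, 5 of the 35 (14.3%) beside 5.35% of all genes, and Gabra3 alone had the reverse (2.86% beside 4.1%). These 5 genes and the 5 of the neocortex had no gene in common, but the share of all genes separate in both regions was not counted. The lack of a shared gene therefore does not show that the genotype effect differs between regions. Reln, an extracellular glycoprotein released by some interneurons, differed by 0.24 ± 0.11 and Calb2 by 0.14 ± 0.10 (adjusted p = 0.45 and 0.57). The sign for Calb2 turned in 5 of 16 alternatives, down to -0.16, and the group means were 0.45 in TDP43-WT and 0.39 in TDP43-KQ. Exons of Reln overlap the antisense gene Gm10475.

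Slc12a2, the importer that raises chloride in cells, was 0.02, 0.26, 0.35 and 0.49 in hippocampus TDP43-WT and 0.97, 0.24, 0.50, 0.42 and 0.59 in TDP43-KQ. The highest library was TDP43-KQ female 1, and without it the difference of 0.42 ± 0.18 (adjusted p = 0.40) was 0.01, whereas without TDP43-WT male 1 it was 0.83. The same library was highest for 8 choroid plexus markers, whose mean was -0.09, 0.58, 1.01 and 1.99 in TDP43-WT and 3.55, 0.29, 1.68, 2.24 and 2.23 in TDP43-KQ, and all 8 were higher in TDP43-KQ with a median difference of 1.62 and 0 called. In the neocortex TDP43-KQ female 2 was highest for both, with 0.31 for Slc12a2 and 1.70 for the list. Slc12a2 is abundant in choroid plexus epithelium, and the part of that tissue in its values was not tested.

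**Figure D3:**
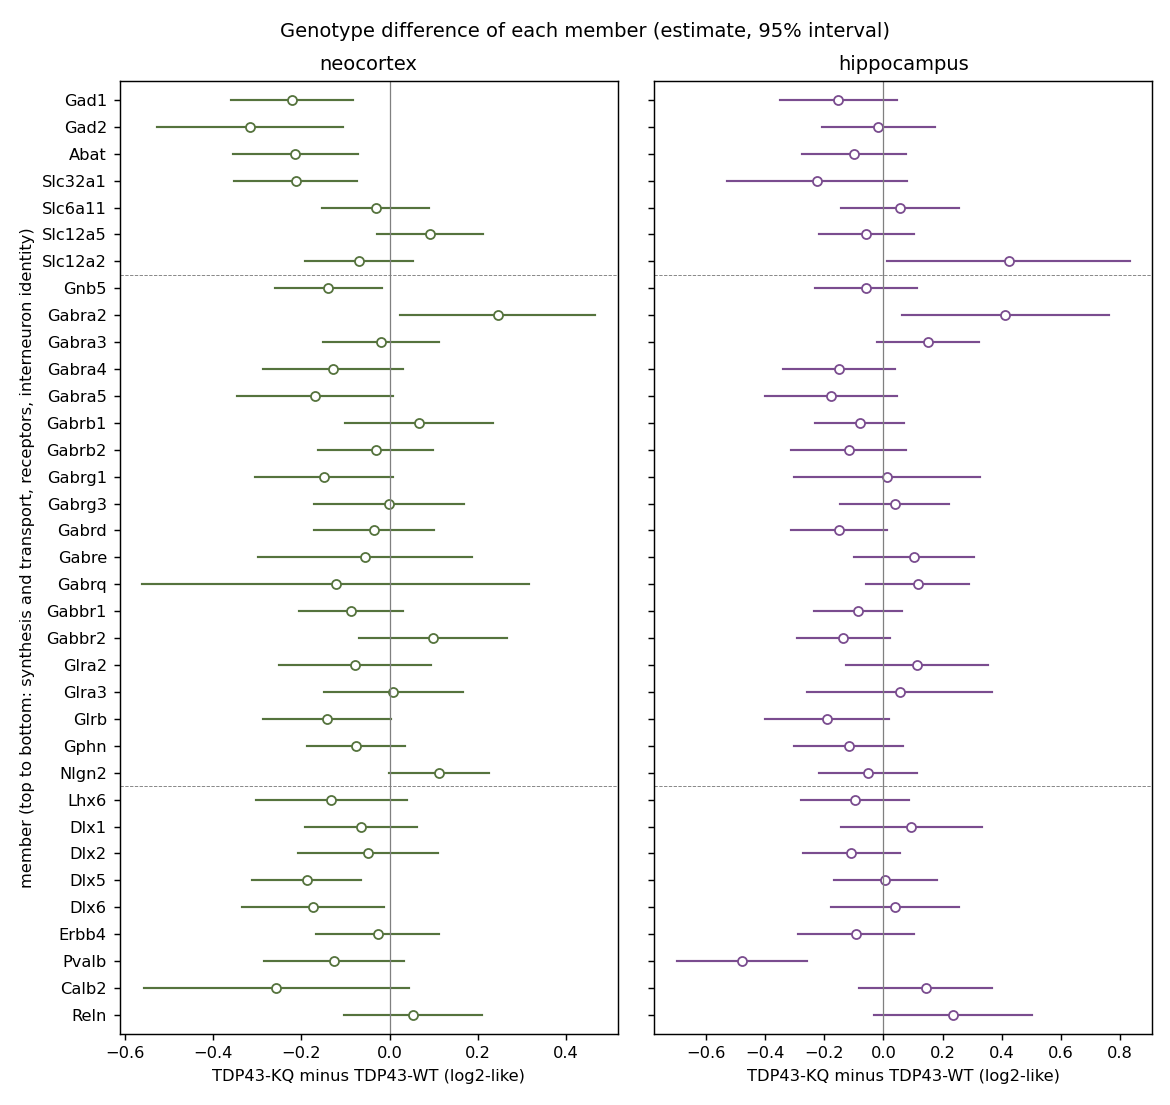
Difference of genotype for each of the 35 genes (horizontal axis, TDP43-KQ minus TDP43-WT, log2-like; points are limma estimates and lines 95% intervals, open because none was called) in the neocortex and hippocampus. In the neocortex 28 of 35 estimates lie below 0, and in the hippocampus 20, with Pvalb lowest at -0.48 and Slc12a2 and Gabra2 highest at 0.42 and 0.41.

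The genotype effect was not shown to differ between the regions for any of the 35 genes (0 of 17863 genes called by limma, 0%). At an unadjusted p under 0.05, 2 of the 35 were higher in the hippocampus effect and 1 lower, against 2.63% and 3.2% of all genes. They were Gad2 (0.32 ± 0.12, adjusted p = 0.81), Gabra3 (0.18 ± 0.08, adjusted p = 0.83) and Gabbr2 (-0.22 ± 0.08, adjusted p = 0.81). For Gad1 the difference of effects was 0.14 ± 0.08 (adjusted p = 0.85).

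The regions themselves differed far more than the genotypes. Between hippocampus and neocortex of TDP43-WT mice, 26 of the 35 genes were called, 3 higher and 23 lower in the hippocampus, against 28.2% of all genes in either direction, 13.5% higher and 14.7% lower. In TDP43-KQ mice 25 were called, 4 higher and 21 lower, against 35.4%, 17.2% and 18.2%. In both genotypes and the same direction 22 were called, 3 higher and 19 lower, against 22.2%, 9.81% and 12.3%. The median over the 35 genes was -0.29 in TDP43-WT and -0.24 in TDP43-KQ, beside 0.01 for all genes in each.

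**Figure D4:**
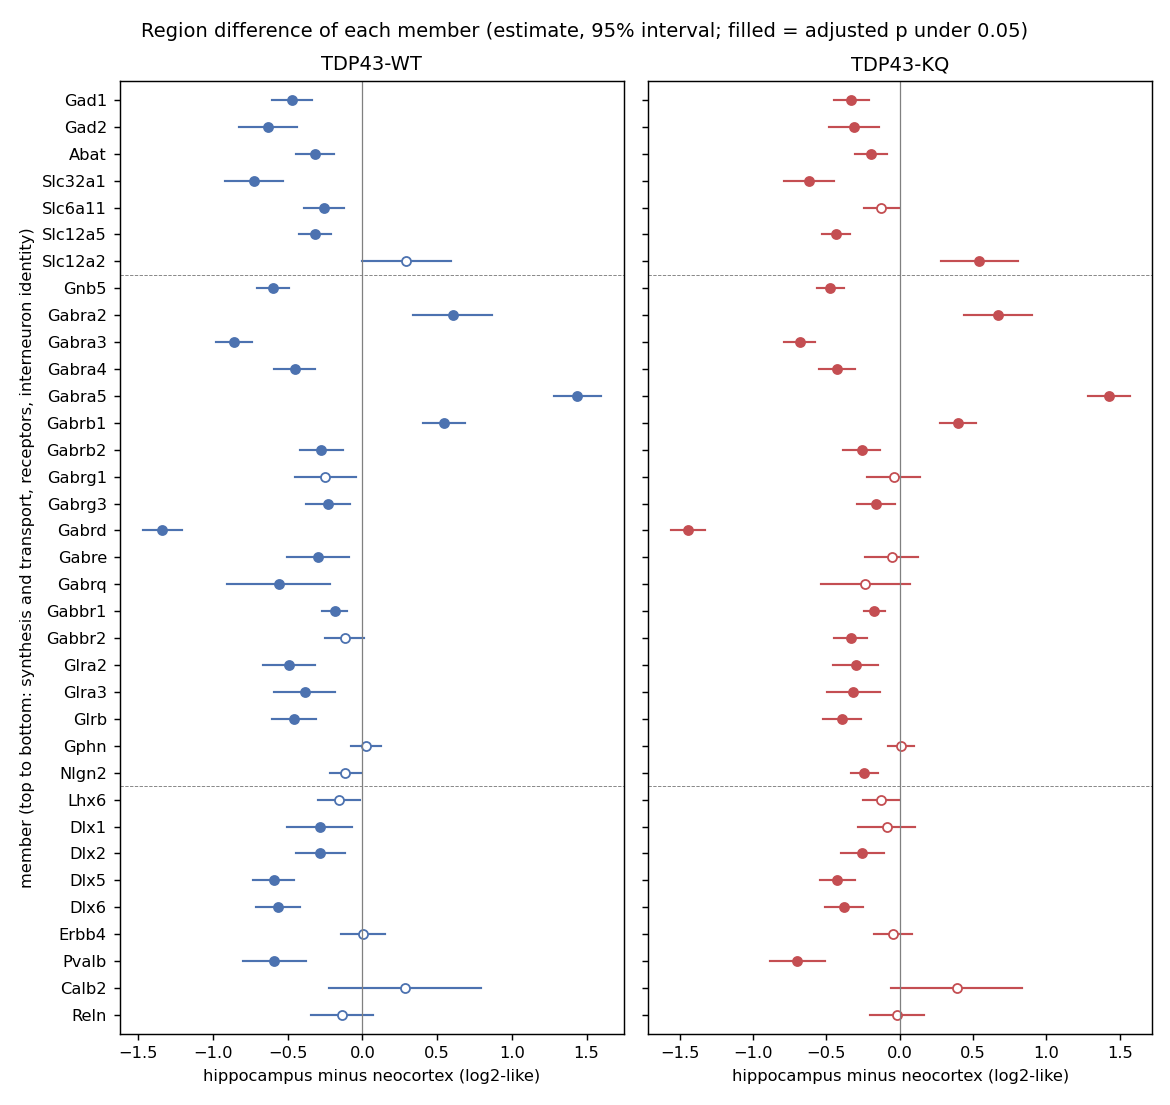
Difference between regions for each of the 35 genes (horizontal axis, hippocampus minus neocortex, log2-like; points are limma estimates, lines 95% intervals, filled where the adjusted p is under 0.05) in TDP43-WT and TDP43-KQ mice. Gabra5 lies highest at 1.44 and 1.43 and Gabrd lowest at -1.34 and -1.44, and the genotypes share no library.

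Synthesis and transport was lower in the hippocampus. Slc32a1 fell by 0.72 ± 0.09 in TDP43-WT and by 0.62 ± 0.08 in TDP43-KQ mice (adjusted p = 1.9e-05 and 2.0e-05), Gad1 by 0.47 ± 0.06 and 0.33 ± 0.06 (adjusted p = 4.4e-05 and 0.00027) and Gad2 by 0.63 ± 0.09 and 0.31 ± 0.08 (adjusted p = 7.5e-05 and 0.0062). Abat and Slc12a5 were lower too, by 0.20 to 0.43. Slc6a11 was called in TDP43-WT only (-0.26 ± 0.06) and Slc12a2, higher by 0.54 ± 0.12, in TDP43-KQ only; neither difference between genotypes was called (adjusted p = 0.86 and 0.87). The striatal list, beside these values, was lower in the hippocampus in 19 of 19 genes, with medians of -1.98 and -1.52, and its part in them was not tested.

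Among GABA-A receptor subunits the regions diverged by subunit. Gabra5, whose receptors lie largely outside synapses, was 1.51, 1.79, 1.54 and 1.54 in hippocampus TDP43-WT libraries against 0.18, 0.19, 0.07, 0.16 and 0.18 in the neocortex. Gabrd, the delta subunit of extrasynaptic receptors, was -1.36, -1.23, -1.29 and -1.24 against -0.02, 0.17, 0.09, 0.06 and 0.003. Exons of Gabra5 overlap the antisense gene Gm9962, whose reads cannot be told apart from its own. No library of 1 region reached the range of the other for either gene. Their region differences were 1.44 ± 0.07 and -1.34 ± 0.06 in TDP43-WT (adjusted p = 2.3e-09 and 7.3e-10) and 1.43 ± 0.07 and -1.44 ± 0.05 in TDP43-KQ (adjusted p = 4.1e-10 and 6.6e-11). In the 6 female pairs from probably shared mice, Gabra5 was higher in the hippocampus in 6 and Gabrd lower in 6.

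The alpha subunits fell on both sides. Gabra3 was lower in the hippocampus by 0.86 ± 0.06 in TDP43-WT and 0.68 ± 0.05 in TDP43-KQ, and Gabra4 by 0.45 ± 0.06 and 0.43 ± 0.06. Gabra2 was higher by 0.60 ± 0.12 and 0.67 ± 0.11. All of these were called (highest adjusted p = 0.0018), as was the beta subunit Gabrb2, lower by 0.28 ± 0.07 and 0.26 ± 0.06. Gabrg1 was called in neither genotype (-0.25 ± 0.10 and -0.04 ± 0.08). The upstream 250 bases of Gabra5 and Gabra3, the alpha genes at either end, are printed from RefSeq (GRCm38.p6, minus strand of each, chr7:57510060-57510309 and chrX:72656920-72657169) because they moved in opposite directions between regions.
Gabra5: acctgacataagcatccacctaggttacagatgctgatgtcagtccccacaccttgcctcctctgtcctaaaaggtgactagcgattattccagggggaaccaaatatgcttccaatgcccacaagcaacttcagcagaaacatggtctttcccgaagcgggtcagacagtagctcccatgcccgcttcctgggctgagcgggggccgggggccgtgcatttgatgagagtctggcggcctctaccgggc
Gabra3: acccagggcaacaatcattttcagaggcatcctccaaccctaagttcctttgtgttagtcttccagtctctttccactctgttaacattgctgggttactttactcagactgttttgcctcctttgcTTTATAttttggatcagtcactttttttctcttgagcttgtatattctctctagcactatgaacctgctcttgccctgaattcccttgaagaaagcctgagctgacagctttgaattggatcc
The Gabra5 window has 56.4% G and C and the Gabra3 window 42.4%, around a median of 52.4% over 32851 windows. Capitals mark TATAAA read on either strand, which is in the Gabra3 window and not in that of Gabra5. Of the 35 genes, 29 had 37 windows in the table. TATAAA was in 6 of these 37 and in 12.4% of all windows, and TAATTA, a core bound by homeodomains, was in 1 (Gabrg1) and in 4.84%.

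Neighbours in a gene cluster differed in opposite directions. On chromosome 5 Gabrg1, Gabra2, Gabra4 and Gabrb1 lie within chr5:70751047-72149037, and in the hippocampus Gabra2 and Gabrb1 were higher and Gabra4 lower. Gabra4 and Gabrb1 start close together on opposite strands, with overlapping exons, and differed by -0.45 ± 0.06 and 0.55 ± 0.07 in TDP43-WT and by -0.43 ± 0.06 and 0.40 ± 0.06 in TDP43-KQ. Reads in the shared stretch could count for either gene, since the strand used in counting is not given in the sources used here. On chromosome 7 Gabra5 was higher while Gabrg3, 20484 bases away, was lower by 0.23 ± 0.07 and 0.16 ± 0.06.

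The rest of the receptor group was lower in the hippocampus or did not pass the test. Gnb5 fell by 0.60 ± 0.05 and 0.47 ± 0.04 (adjusted p = 2.6e-07 and 6.2e-07), Glrb by 0.46 ± 0.07 and 0.40 ± 0.06, and the glycine receptor alpha subunits Glra2 and Glra3 by 0.30 to 0.49. Gabbr1 fell by 0.19 ± 0.04 and 0.17 ± 0.03. Gabbr2 and Nlgn2 were called in TDP43-KQ alone and Gabre and Gabrq in TDP43-WT alone, without a called difference between genotypes (lowest adjusted p = 0.81). Gphn, the scaffold under inhibitory receptors, differed by 0.03 ± 0.05 and 0.01 ± 0.04.

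Among identity genes, Pvalb fell in the hippocampus by 0.59 ± 0.10 and 0.70 ± 0.09, Dlx5 by 0.59 ± 0.06 and 0.43 ± 0.06, Dlx6 by 0.56 ± 0.07 and 0.38 ± 0.06 and Dlx2 by 0.28 ± 0.08 and 0.25 ± 0.07. Dlx1 was called in TDP43-WT alone (adjusted p = 0.0498). Lhx6, Erbb4, Calb2 and Reln were called in neither genotype. Erbb4, the neuregulin receptor of interneurons, differed by 0.004 ± 0.07 and -0.05 ± 0.06, whereas Calb2, at 0.28 ± 0.24 and 0.39 ± 0.21, was too variable to place.

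Of other GABA and glycine pathway genes, 40 of 41 listed were in the table. In the neocortex 12 of the 39 tested were higher and 27 lower in TDP43-KQ mice, with a median of -0.05 and 0 called by limma, and 3 higher and 5 lower at an unadjusted p under 0.05 (7.69% and 5.97% of all genes). In the hippocampus 9 of 38 were higher and 29 lower, with a median of -0.06 and 0 called, and 1 higher and 4 lower at an unadjusted p under 0.05 (6.48% and 5.67% of all genes). Gng7, a G protein gamma subunit, had the largest neocortex difference (-0.39 ± 0.09, adjusted p = 0.18). The striatal list was lower in the same TDP43-KQ libraries, and the part of striatal tissue in the Gng7 values was not tested. The GABA transporter Slc6a13 had the largest hippocampus difference (0.53 ± 0.25, adjusted p = 0.44). All 8 choroid plexus markers were higher in the same comparison (median 1.62), and the part of that tissue in the Slc6a13 values was not tested.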

How the data were processed

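Reads from 20 total RNA libraries were trimmed with cutadapt, aligned by the authors with STAR 2.5.2b to mm10 and quantified with Salmon, and the strand used in counting is not given in the sources used here. The deposited table holds log2-like values: counts were variance-stabilized by the authors with DESeq2 1.34.0 in R 4.1.0, and limma was then used to take out sex and litter over both regions jointly. Each gene is centred on the neocortex TDP43-KQ mean. Depth is not held in the table, so precision comes from the spread between libraries. Groups, sex, litter and replicate numbers came from the labels.

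Here lmFit and eBayes of limma 3.58.1 (statmod 1.5.0, R 4.3.3) were run on the whole table with genotype, sex and litter as terms (4 residual degrees of freedom in the neocortex, 3 in the hippocampus), and with both regions in 1 model and shared sex and litter terms (11), which treats libraries of 1 mouse as independent. Sex and litter were fitted again because their removal had spent those degrees of freedom. Genes at 0 in every library (4383) and genes tied within 1e-06 across a whole litter of 3 same-sex libraries were not tested. P values were adjusted after Benjamini and Hochberg over all genes tested, with a threshold of 0.05, and single genes were also tested by exact permutation. The fit was run on simulated data in which litter effects had not been removed beforehand, so the refit of terms already removed was not tested. Figures were drawn and sequences read in Python 3.11.15 (numpy 2.4.6, pandas 2.3.3, matplotlib 3.10.9) with GENCODE M21 and RefSeq annotation of GRCm38.

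Libraries are separate samples by their labels, and where litters hold 1 library the p-values rest on the others. The members, gene lists and tests were chosen with earlier results of these data known. All 35 members are named; library values are given for Gad1, Gad2, Abat, Slc32a1, Gnb5 and the member with the largest absolute genotype difference in each group and region, and from other lists up to 2 genes with the largest differences, and Sst and Npy; Gabra5, Gabrd and Crhbp were added after their values were seen. Alternatives were the omission of litter or of sex and litter, litter as a random effect, a replicate block, each female mouse as a random effect, females only for the regions, no filter, robust eBayes, median centring and each library left out. The numbers do not pair the genotypes: deviations of same-numbered libraries of 1 sex correlated from -0.60 to 0.12.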

Additional observations from a re-analysis of the deposited data

Results flagged for a closer look

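A library that stands far from the rest of its group was looked for in 140 groups of values (35 genes in 4 groups), of which chance alone would pick about 1 in 20, and 7 were found. Calb2 in neocortex TDP43-KQ female 2 was 0.70, with the other libraries of the group from -0.32 to 0.01, and Slc12a2 in the same library was 0.31, with the others from -0.10 to 0.04. Gabra2 in hippocampus TDP43-WT female 1 was 0.19 (others 0.33 to 0.36). Gabra5 in hippocampus TDP43-WT female 2 was 1.79 (others 1.51 to 1.54), and in neocortex TDP43-WT female 3 it was 0.075 (others 0.16 to 0.19). Gabrd in hippocampus TDP43-KQ female 3 was -1.59 (others -1.43 to -1.38). Glra3, a glycine receptor subunit, was -0.063 in hippocampus TDP43-KQ male 1 (others -0.42 to -0.34).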

How the results depend on the processing

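In these fits of the deposited values, the count of 0 called genes of 35 for genotype depends on the treatment of litter. It is not the authors' DESeq2 test, which also corrected for sex and litter. In the neocortex alone it was 10 with genotype as the only term, 9 with sex without litter and 10 with litter as a random effect. With both regions in 1 model these settings gave 11, 9 and 11 in the neocortex and 4, 4 and 4 in the hippocampus. By construction they count degrees of freedom that the removal of litter had spent. In the hippocampus alone every setting gave 0. The replicate block gave 7 in the neocortex alone and 6 and 1 with both regions in 1 model, but same-numbered libraries share only a number, since their deviations correlated from -0.60 to 0.12.

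Leaving out each library kept the count at 0 in either region alone, at 0 to 1 in the neocortex with both regions in 1 model (1, Gad1, without neocortex TDP43-KQ male 1) and at 0 in the hippocampus. The neocortex median of synthesis and transport ran from -0.2228 to -0.1524 and that of receptors from -0.07594 to -0.01548, both nearest 0 without TDP43-WT male 2. The region counts ran from 22 to 26 in TDP43-WT and from 24 to 26 in TDP43-KQ. Robust estimation, no filter, median centring and the mouse random effect (correlation 0.27) changed no count among the 35 genes by over 1.5 times (over all genes the 7 called in the neocortex became 12 with robust estimation and 0 with no filter), and the difference of the genotype effect between regions had 0 called in all 28 alternatives. The table gives no depth, and 3 or 4 residual degrees of freedom limit what a single gene can show.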

Other observations

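Among interneuron genes outside the 35, Sst, Npy and Crhbp were lower in the hippocampus of TDP43-KQ mice. Of a list of 34 other interneuron genes, 26 were lower in the neocortex (median -0.08, 12 at an unadjusted p under 0.05, beside 5.97% of all genes) and 25 in the hippocampus (median -0.13, 12, beside 5.67%), with 0 called by limma in either region alone. With both regions in 1 model 3 of the 34 were called lower in the hippocampus, beside 0.246% of all genes, and 0 in the neocortex. Sst, the somatostatin gene, was 0.23, 0.48, 0.26 and 0.26 in hippocampus TDP43-WT and -0.19, -0.16, -0.18, -0.07 and -0.04 in TDP43-KQ, a difference of -0.44 ± 0.06 (adjusted p = 0.0077). Npy, which encodes neuropeptide Y, was -0.48, -0.41, -0.55 and -0.47 against -0.93, -0.79, -0.90, -0.90 and -0.84, a difference of -0.39 ± 0.05 (adjusted p = 0.0034). Crhbp, a binding protein of corticotropin-releasing hormone, differed by -0.46 ± 0.08 (adjusted p = 0.022). Cort, the cortistatin gene, had the largest difference of the list in that model and was not called (-0.46 ± 0.11, adjusted p = 0.096).

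The genotypes were separate for Sst, Npy and Crhbp in both regions, as for 5.35% of all genes in the hippocampus and 4.29% in the neocortex in this direction. The share of all genes separate in both regions was not counted. These genes were called from the same hippocampus libraries, and Crhbp was added after its values were seen. Their separation is therefore not independent support. In the neocortex Tac1, a tachykinin precursor, had the largest difference of the list (-0.54 ± 0.12, adjusted p = 0.078). Hippocampus minus neocortex in TDP43-WT mice was -2.12 ± 0.13 for Tac1, beside a median of -1.98 for the striatal list. The part of striatal tissue in the Tac1 values was not tested. With both regions in 1 model, Npy was called lower in the hippocampus in 28 of 28 alternatives. Sst was called in 27, with an adjusted p of 0.088 without TDP43-KQ female 1. Crhbp was called in 25, with 0.22 without TDP43-KQ female 1, 0.054 without TDP43-WT male 1 and 0.052 without TDP43-KQ male 2. From the hippocampus libraries alone, Npy, Sst and Crhbp were each called in only 3 of 16 alternatives. In the neocortex the differences of Sst, Npy and Crhbp were -0.21 ± 0.06, -0.19 ± 0.05 and -0.30 with both regions in 1 model (adjusted p = 0.16, 0.12 and 0.092), and the difference between the regions for Sst and Npy was not called (adjusted p = 0.80 and 0.75). In the hippocampus, in the same model, all 8 oligodendrocyte markers were lower in TDP43-KQ mice (median -0.32, 1 called). All 8 markers of neurons in general were lower too (median -0.09, 0 called). So were 9 of 10 excitatory neuron markers (median -0.15), 6 of 6 of microglia (-0.15) and 7 of 8 of astrocytes (-0.12). Endothelial markers were higher in 5 of 6 genes (0.13) and choroid plexus markers in 8 of 8 (1.06). The part of these cell types in the values of Sst, Npy and Crhbp was not tested.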
